A study of Mus musculus with 10 samples.

Results

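The 7 genes described here, Scn7a, Sox10, Erbb3, Foxd3, Fabp7, Ngfr and Cdh19, are markers of Schwann cells and of the neural crest glia from which Schwann cells arise. They were selected on a measured value: Scn7a was chosen by its fall with insulin-like growth factor 1 (IGF1) in these same teeth, and the other 6 were set beside it as glial markers to ask whether they shared that fall. Each was found by its symbol among the mouse gene models of GENCODE (build GRCm38), and together they are 7 of the 18381 genes in the deposited table. The samples were first lower molars of wild type C57BL/6JOlaHsd mouse embryos at embryonic day 14, kept for 6 h as explants hanging in drops of medium. From each of 5 embryos (numbered 1, 2, 3, 4 and 6) a tooth received recombinant mouse IGF1 at 750 ng per ml and the tooth of the opposite side received an equal volume of the vehicle alone, phosphate-buffered saline with bovine serum albumin, with sides balanced over embryos. Each tooth was sequenced on its own, so there were 5 IGF1 and 5 control teeth that share genotype, strain, age and culture, and an IGF1 tooth differs from its control in treatment and side of the jaw. Whole tooth germs were used and no cells were sorted, so glia are a part of each sample.

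Schwann cells are the glia of peripheral nerves and descend from the neural crest through Schwann cell precursors that travel along growing axons. The transcription factor Sox10 is required for this lineage, Foxd3 acts upstream in the crest, and the receptor Erbb3 lets the precursors survive on neuregulin supplied by axons. In the jaw, branches of the trigeminal nerve reach the tooth germ during development, and most of the dental mesenchyme is itself of neural crest origin. Several of the 7 genes are therefore not exclusive to glia: Ngfr, the low-affinity neurotrophin receptor, is also known from dental mesenchyme, and Erbb3 from epithelia.

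The upstream sequences of Scn7a and Ngfr are printed because these were the members with a lower level in the IGF1 tooth of every embryo. RefSeq promoter windows (GRCm38.p6) were found for 4 of the 7 members, Scn7a, Ngfr, Foxd3 and Fabp7, and the bases that precede the GENCODE gene are given 5′ to 3′ on the strand of the gene, with each CG dinucleotide in capitals. The Scn7a stretch lies at chr2:66784915-66785160 on the minus strand and the Ngfr stretch at chr11:95587736-95587948 on the minus strand.
Scn7a: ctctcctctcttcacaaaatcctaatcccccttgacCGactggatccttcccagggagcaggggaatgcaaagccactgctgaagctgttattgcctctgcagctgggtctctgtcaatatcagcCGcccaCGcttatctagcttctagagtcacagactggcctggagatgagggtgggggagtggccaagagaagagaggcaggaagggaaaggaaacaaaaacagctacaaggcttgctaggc
Ngfr: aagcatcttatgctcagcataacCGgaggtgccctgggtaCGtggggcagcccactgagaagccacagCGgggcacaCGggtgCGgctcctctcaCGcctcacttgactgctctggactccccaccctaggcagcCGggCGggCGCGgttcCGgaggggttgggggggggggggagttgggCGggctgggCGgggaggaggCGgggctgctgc
The Scn7a stretch held 3 CG dinucleotides in 246 bases, and that of Ngfr held 14 in 213 bases. Over the full windows of 250 upstream bases the count was 3 for Scn7a, 4 for Fabp7, 16 for Ngfr and 21 for Foxd3, against a median of 6 over 32851 windows of that length in all genes of the RefSeq table. The G+C content was 53.2% for Scn7a, 54.8% for Fabp7, 65.6% for Foxd3 and 70.4% for Ngfr. The count of CG dinucleotides was chosen after the sequences were seen. The cores ACAAAG and ACAATG, to which SOX factors bind, and the forkhead core GTAAACA were searched on both strands and had 0 matches in the 4 windows. They were present in 16.5%, 10.7% and 3.17% of all windows, so these letters are not in most windows of this size.

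Total counts ran from 2845773 to 8403151 in control teeth and from 3456634 to 8763113 in IGF1 teeth, and both teeth of embryo 1 had the lowest totals of their group. Levels are given in CPM, the count scaled to a common library total, after TMM normalization, which sets each library's total so that most genes keep their level. A count of 0 allows a level of up to 1.03 CPM in the control tooth of embryo 1 and up to 0.864 CPM in its IGF1 tooth, and up to 0.454 CPM in the other 8 teeth. Intervals and limits of this kind cover counting error only. Every value is a sum over all cells of a tooth. Fewer glia, less RNA for each gene in as many glia and a change in other cells that express the gene therefore cannot be told apart.

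The 7 genes fell into an abundant and a sparse group. Divided by exon length, the control level was 26.0 ± 4.19 CPM per kb for Ngfr and 11.7 ± 1.44 CPM per kb for Erbb3 (SD, n = 5 here and for the other groups of teeth). The lowest control tooth for Ngfr, at 20.1 CPM per kb, lay above the highest for Erbb3, at 13.8 CPM per kb. The sparse genes were at 0.695 ± 0.462 CPM per kb for Fabp7, 0.401 ± 0.138 for Scn7a, 0.368 ± 0.200 for Cdh19, 0.306 ± 0.212 for Sox10 and 0.108 ± 0.147 for Foxd3. Neighbours in this order among the sparse genes did not differ beyond their spread between teeth, whereas Erbb3 stood far above Fabp7. With the length of the longest transcript in place of all exons, Fabp7 was at 0.988 CPM per kb, and Cdh19 at 0.402 and Scn7a at 0.401 CPM per kb exchanged places. In counts, the 10 teeth together held 4970 reads of Ngfr and 4350 of Erbb3, but only 134 of Cdh19, 124 of Scn7a, 72 of Fabp7, 67 of Sox10 and 14 of Foxd3.

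**Figure D1:**
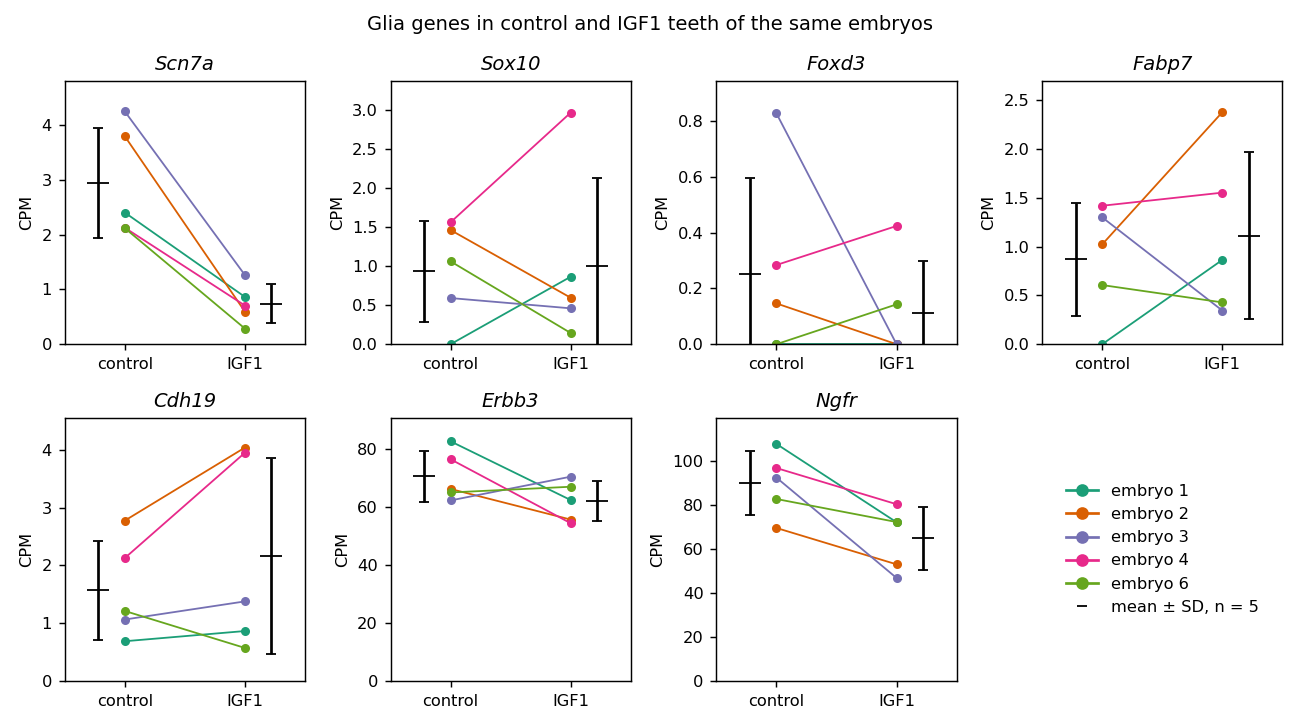
CPM of the 7 glia genes (vertical axis, a separate scale for each gene starting at 0) in the control and IGF1 teeth (horizontal axis), with a coloured line joining the 2 teeth of an embryo and black bars for the mean ± SD of 5 teeth, cut off at 0 where they would pass it. The 5 lines slope down for Scn7a, from 2.12 to 4.25 CPM in control teeth to 0.286 to 1.26 CPM in IGF1 teeth, and for Ngfr, whereas for each of the other genes some lines slope up and some down.

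Scn7a encodes Nax, a relative of the voltage-gated sodium channels that is known as a sensor of extracellular sodium and is present in non-myelinating Schwann cells. The gene (ENSMUSG00000034810) spans chr2:66673425-66784914 on the minus strand. In the control teeth of embryos 1, 2, 3, 4 and 6 it was measured at 2.40, 3.80, 4.25, 2.13 and 2.12 CPM, from 7, 26, 36, 15 and 14 counts. In the IGF1 teeth of the same embryos it was at 0.864, 0.594, 1.26, 0.706 and 0.286 CPM, from 3, 5, 11, 5 and 2 counts. The highest IGF1 tooth lay below the lowest control tooth, so the groups did not overlap. The mean was 2.94 ± 1.01 CPM in controls and 0.742 ± 0.360 CPM with IGF1, and the fitted log2 fold change of IGF1 against control was -2.02 (SE 0.35). Summed over teeth, 26 counts stood against 98, a ratio of 0.244 after allowing for library size, with an exact 95% interval from 0.152 to 0.379. These values chose the gene, so they describe it and carry no test here. Because all 5 of its teeth above the filter on low counts (at least 1.42 CPM in 5 teeth) were control teeth and none an IGF1 tooth, its passing the filter depended on the control group. DESeq2's Wald test gave a log2 fold change of -2.06 (SE 0.65) and no adjusted p-value, since that tool set the gene aside for its low mean count.

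The genes of the crest and precursor stage had no common direction. Sox10, the defining transcription factor of the lineage (ENSMUSG00000033006, chr15:79154908-79165240), was at 0, 1.46, 0.591, 1.56 and 1.06 CPM in the control teeth of embryos 1, 2, 3, 4 and 6. The IGF1 teeth held 0.864, 0.594, 0.459, 2.96 and 0.143 CPM of it in the same order. Sox10 was thus lower with IGF1 in 3 embryos and higher in 2, and the groups overlapped, with the IGF1 tooth of embryo 4 above all others. The sums were 34 counts with IGF1 and 33 in controls, a ratio of 0.947 with an exact 95% interval from 0.569 to 1.58. Of the 34 counts, 21 came from the IGF1 tooth of embryo 4, and without that embryo the ratio was 0.531, while without embryo 2 it was 1.20. Foxd3, the forkhead factor of the early crest (ENSMUSG00000067261, chr4:99656299-99658622), gave 10 counts in controls and 4 with IGF1 and none in 5 of the 10 teeth. Its ratio of 0.368 had an interval from 0.0841 to 1.27, and 7 of the 10 control counts came from embryo 3, without which the ratio was 1.20. A difference in Foxd3 was not detectable at this depth. Of the 31-base words in its transcripts, 5.54% also occur in other genes, among them Foxd1 and Foxd2, so its few counts could include reads of those.

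Fabp7 and Cdh19, which are known from Schwann cell precursors, had ratios above 1. Fabp7, a brain-type fatty acid binding protein (ENSMUSG00000019874, chr10:57784881-57788450), had 0, 7, 11, 10 and 4 counts in the control teeth of embryos 1, 2, 3, 4 and 6. Its IGF1 teeth had 3, 20, 3, 11 and 3 counts. It was higher with IGF1 in 3 embryos and lower in 2, with a ratio of sums of 1.15 (exact 95% interval 0.704 to 1.89), which moved to 0.762 without embryo 2 and 1.59 without embryo 3. Cdh19, a cadherin of the precursors (ENSMUSG00000047216, chr1:110888326-110977584), was at 0.687, 2.78, 1.06, 2.13 and 1.21 CPM in control teeth. With IGF1 it was at 0.864, 4.04, 1.38, 3.95 and 0.571 CPM, above the control tooth in each embryo but embryo 6. The sums were 81 counts with IGF1 and 53 in controls, a ratio of 1.40 with an interval from 0.981 to 2.02, and leaving out each embryo in turn gave 1.25 to 1.56.

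Both receptors were well measured, with at least 217 counts in every tooth. Ngfr (ENSMUSG00000000120, chr11:95568818-95587735) was at 107.5, 69.4, 92.3, 96.6 and 82.5 CPM in the control teeth of embryos 1, 2, 3, 4 and 6. In the IGF1 teeth it was at 72.0, 52.9, 46.7, 80.2 and 72.1 CPM. Ngfr was lower with IGF1 in all 5 embryos, although the ranges of the groups overlapped, since the control tooth of embryo 2 lay below 3 of the IGF1 teeth. The mean was 89.7 ± 14.5 CPM in controls and 64.8 ± 14.2 CPM with IGF1, a log2 fold change of -0.48 (SE 0.11). Without embryo 1 (-0.46) or without pairing the teeth by embryo (-0.47) Ngfr no longer passed the threshold of the fit across all genes. Erbb3 (ENSMUSG00000018166, chr10:128567523-128589652) was at 82.8, 66.3, 62.4, 76.6 and 65.1 CPM in controls and at 62.5, 55.7, 70.6, 54.5 and 67.1 CPM with IGF1. It was lower with IGF1 in embryos 1, 2 and 4 and higher in embryos 3 and 6, with means of 70.6 ± 8.67 and 62.1 ± 6.99 CPM and a log2 fold change of -0.18 (SE 0.10).

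In the fit across all genes, edgeR's quasi-likelihood test with the embryo as a block and Benjamini-Hochberg adjustment, 1666 of 14504 genes, or 11.5%, changed at an adjusted p-value under 0.05, and 691, or 4.76%, were lower with IGF1. The median log2 fold change of all genes was -0.0038. Of the 7 members, 3 passed the filter and were tested, and 2 of them, Scn7a and Ngfr, were past the threshold, both lower with IGF1. The other 4, Sox10, Foxd3, Fabp7 and Cdh19, were above the cutoff in 3, 0, 2 and 4 teeth and were not tested. Just inside the filter stood Scn7a with 5 teeth above the cutoff and just outside it Cdh19 with 4. As Scn7a was chosen by this contrast, nothing is read from the count of 2.

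To ask whether the sparse glia genes moved with Scn7a from tooth to tooth, the counts of Sox10, Foxd3, Fabp7 and Cdh19 were added, a sum chosen after the values were seen. The sum was 0.687, 5.41, 3.78, 5.39 and 2.88 CPM in the control teeth of embryos 1, 2, 3, 4 and 6 and 2.59, 7.01, 2.18, 8.89 and 1.28 CPM in the IGF1 teeth. It was higher with IGF1 in embryos 1, 2 and 4 and lower in embryos 3 and 6, with means of 3.63 ± 1.97 and 4.39 ± 3.35 CPM. The IGF1 teeth of embryos 2 and 4, with the most counts of these 4 genes, had 5 counts of Scn7a each. For each count of the 4 genes there were between 0.395 and 3.50 counts of Scn7a in a control tooth and between 0.0794 and 0.579 in an IGF1 tooth, and the value was lower with IGF1 in every embryo. The 3.50 is that of the control tooth of embryo 1, with 7 counts of Scn7a over only 2 of the 4 genes. Without it the control teeth ran from 0.395 to 1.125. Part of this follows from the choice of Scn7a, whose own values are in the ratio, so it is given as a description.

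**Figure D2:**
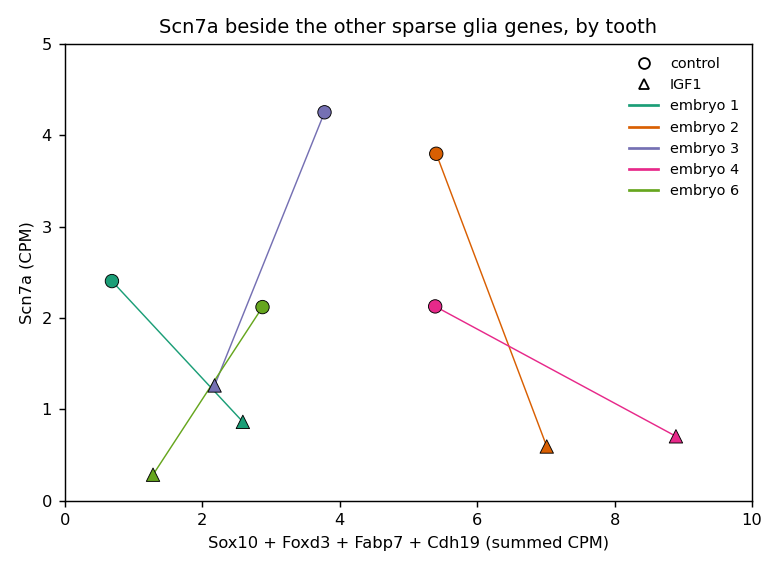
Scn7a (vertical axis, CPM) against the summed CPM of Sox10, Foxd3, Fabp7 and Cdh19 (horizontal axis) in each tooth, with circles for controls, triangles for IGF1 teeth and a line joining the teeth of an embryo. All triangles lie under all circles, at 1.26 CPM or less, whereas along the horizontal axis the triangles run from 1.28 to 8.89 CPM and span the circles, at 0.687 to 5.41 CPM.

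The embryo of origin is a comparison that the choice of the genes did not use. Over all genes, 58 of 14504, or 0.4%, differed between embryos at an adjusted p-value under 0.05 in the same fit (edgeR's quasi-likelihood F test of the embryo terms together). This count was 11 without embryo 1, 24 without embryo 6 and 675 without embryo 3, and 682 with DESeq2's likelihood ratio test. Of the 3 members tested, 0 passed, with adjusted p-values of 0.189 for Ngfr, 0.384 for Scn7a and 0.798 for Erbb3. Ngfr had an unadjusted p under 0.05, the 1 member of the 3 that did, and DESeq2's likelihood ratio test likewise passed 0 members after adjustment and had 1 before it. A p-value above the threshold does not show that embryos were alike. The sparse genes varied most in level, and for Cdh19 both teeth of embryo 2 and of embryo 4, at 2.13 to 4.04 CPM, lay above the other 6 teeth, at 0.571 to 1.38 CPM. These rest on 15 to 34 counts and on 2 to 12 counts, so counting error is large. The pattern was picked after the values were seen, and Cdh19 was not tested.

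Other genes of Schwann cells and their precursors were taken as a list of 26, of which 25 were in the table and 18 passed the filter. Of these 18, 1 changed, Col28a1, a collagen chain known from peripheral nerve, beside the 11.5% of all genes that did. At an unadjusted p under 0.05 there were 8, 6 lower and 2 higher with IGF1, beside 26.5% of all genes, and the number was 4 without the pairing by embryo and 2 under DESeq2, beside 19.6% and 14.2% of all genes. The median log2 fold change of the 18 was -0.07, with 10 below 0 and a range from -1.71 to 0.52. Col28a1 fell from 2.03 ± 0.573 to 0.694 ± 0.502 CPM, a log2 fold change of -1.71 (SE 0.47, adjusted p = 0.0367, edgeR), and was lower in 5 of 5 embryos. Of its 5 teeth above the filter's cutoff, 4 were control teeth, so its being tested rested mostly on the group where it was high. The call was lost without any filter (adjusted p = 0.0787) and without embryo 2, 3 or 4 (adjusted p from 0.0895 to 0.119), and without embryo 1 the gene was not tested.

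Of the 25 genes in the table, 6 were lower with IGF1 in every embryo and 2 were higher in every embryo. The share of all genes with such a pattern was not computed, so nothing is read from these counts. The 2 higher were Cnp and Lgi4. Cnp was at 11.7 ± 1.84 CPM in controls and 14.6 ± 2.58 CPM with IGF1 (adjusted p = 0.136, edgeR). Lgi4 had 28 counts in controls and 58 with IGF1 and was not tested. S100b, a calcium-binding protein of maturing Schwann cells that chondrocytes also express, was lower in 5 of 5 embryos, with 3.29 ± 1.57 against 1.62 ± 0.844 CPM, a log2 fold change of -1.04 (SE 0.32) and an adjusted p of 0.0555 (edgeR), just outside the threshold. Under limma-voom its adjusted p was 0.0445. In the IGF1 tooth of embryo 4, where Sox10 was highest, the Schwann cell signal Dhh was at 1.27 CPM and the receptor Gfra3 at 1.55 CPM, the highest of the 10 teeth for each.

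**Figure D3:**
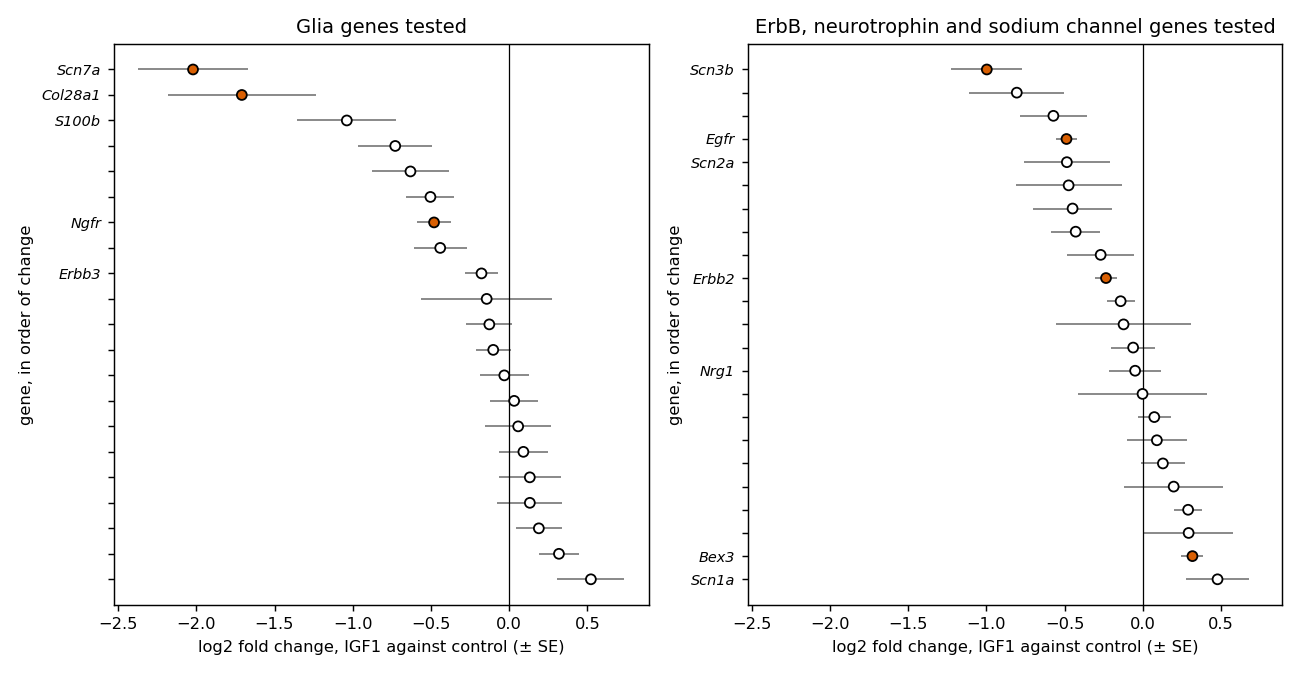
Log2 fold change of IGF1 against control with its standard error (horizontal axis), genes in order of change (vertical axis). On the left are the glia genes tested (3 members and 18 genes of the wider list). On the right are the ErbB, neurotrophin and sodium channel genes tested. Filled points have an adjusted p under 0.05. Names are shown only for genes given in the text, other than Cnp, L1cam, Mal and Sox8. Scn7a at -2.02, which was chosen for its fall, and Col28a1 at -1.71 are the lowest of the glia genes drawn, and the next is S100b at -1.04. Scn7a passed the filter through control teeth only and Col28a1 mostly through control teeth. Glia genes below the filter, among them Sox10, Cdh19 and Lgi4, are not drawn, so nothing is read from the distance.

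The ligands and partners of Erbb3 and Ngfr were examined next. Of 16 neuregulins, neurotrophins and their receptors and partners in the table, 13 were tested and 3 changed, beside the 11.5% of all genes that did, with a median log2 fold change of -0.24. Egfr, a receptor of the family of Erbb3, fell in 5 of 5 embryos from 313 ± 15.1 to 223 ± 17.7 CPM without overlap of the groups (log2 fold change -0.49, SE 0.07, adjusted p = 0.00151, edgeR). Erbb2, which pairs with Erbb3 to signal, fell by 0.24 on the log2 scale (adjusted p = 0.0467, edgeR), a call that was lost when any embryo was left out (adjusted p from 0.0656 to 0.155). Bex3, a partner protein of Ngfr, rose by 0.32 (adjusted p = 0.0154, edgeR) in 5 of 5 embryos and was not called without embryo 1, 4 or 6 (adjusted p from 0.0504 to 0.0630). Nrg1, the axonal ligand of Erbb3, was at 11.1 ± 1.88 and 10.9 ± 2.32 CPM. Without the pairing by embryo 1 of the 13 was called, Egfr.

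Of 15 genes of neural crest specification, 11 were tested and 4 changed, beside the 11.5% of all genes that did. The transcription factors Snai2 (log2 fold change -0.34, adjusted p = 0.0193), Sox5 (-0.42, adjusted p = 0.0149) and Zeb2 (-0.25, adjusted p = 0.0367) fell in edgeR's test, each in 5 of 5 embryos. Sox9, a relative of Sox10 that is also a gene of cartilage and epithelium, rose from 33.3 ± 7.23 to 44.3 ± 7.68 CPM in 5 of 5 embryos (log2 fold change 0.43, adjusted p = 0.0163, edgeR). The median of the 11 tested genes was -0.22, and the 4 that changed are expressed well beyond glia in a tooth germ. Leaving out embryo 6 gave 1 call and leaving out embryo 1, 2 or 4 gave 2 calls, and without the pairing edgeR called 0, with 6 at an unadjusted p under 0.05. DESeq2's Wald test did not call Snai2 (adjusted p = 0.0839) or Sox5 (adjusted p = 0.112).

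Scn7a belongs to the family of voltage-gated sodium channels, and part of that family lies beside it on chromosome 2. Of 14 other sodium channel genes listed, 10 were tested and 1 changed, a share near the 11.5% of all genes, with a median log2 fold change of 0.01. This was Scn3b, an auxiliary subunit, which fell from 7.95 ± 1.97 to 3.94 ± 1.70 CPM in 5 of 5 embryos (log2 fold change -0.998, SE 0.23, adjusted p = 0.0173, edgeR). The call was lost without embryo 4 (adjusted p = 0.0690), without the pairing (adjusted p = 0.0568) and under DESeq2 (adjusted p = 0.0504). Within 1 Mb of Scn7a the annotation holds 10 protein coding genes, of which 7 were in the table and 6 were tested. In edgeR's test 0 of the 6 were called, with 2 at an unadjusted p under 0.05, and DESeq2 and limma-voom also called 0. The nearest, Scn9a, a channel of sensory and sympathetic neurons at a gap of 38463 bases, had 55 counts in controls and 30 with IGF1, a ratio of 0.501 (exact 95% interval 0.310 to 0.796), and was lower in 5 of 5 embryos but below the filter. Scn1a, at a gap of 232585 bases, was on the other side, with 4.81 ± 1.80 CPM in controls, 6.69 ± 2.11 CPM with IGF1 and an adjusted p of 0.162, higher in 5 of 5 embryos. The window was examined after the values of Scn7a were known, and the low ratio of Scn7a itself is what chose it.

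**Figure D4:**
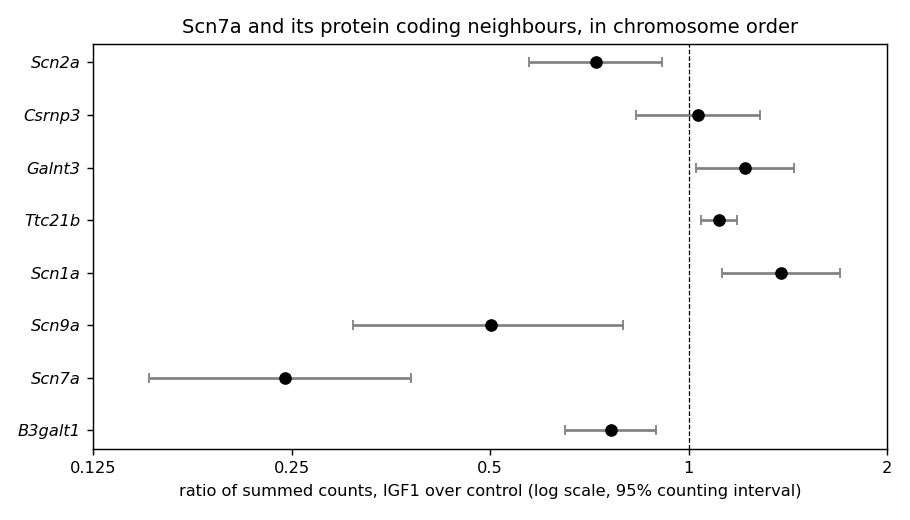
Ratio of summed counts, IGF1 over control (horizontal axis, log scale), with its 95% counting interval, for Scn7a and the 7 measured protein coding genes within 1 Mb in chromosome order (vertical axis). Scn7a, chosen for its fall, is at 0.244, its neighbour Scn9a is at 0.501, and Scn1a at 1.38 lies on the other side of the dashed line at 1.

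Little of the Scn7a sequence is shared exactly with other genes. Of the 7308 words of 31 bases in its GENCODE transcripts, 4, or 0.0547%, occur in other genes, Scn2a among them. The transcript set behind the counts is not known, so the origin of the counts themselves was not tested. For Sox10 the share was 0.822%, all with Sox9, and for Ngfr 1.29%, while Erbb3 and Fabp7 shared none. No exon of a member overlapped another gene in the table.

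The genes whose profile over the 10 teeth was closest to that of Scn7a were not glial markers of the lists. By the root mean square difference of centred log2 CPM, they were Abca6 (0.298), Selenop (0.394), Abca8a (0.409), Muc15 (0.419) and Ypel3 (0.449), where a gene of constant level would be at 0.932. Abca6 and Abca8a are lipid transporters, and Selenop is the plasma carrier of selenium. Closeness here was mostly the shared difference between groups, with log2 fold changes from -1.58 for Abca6 to -1.23 for Selenop. The genes closest to Sox10 were Mx1 (0.449), Sorcs3 (0.558), Ifi44 (0.574), Irgm1 (0.587) and Klf2 (0.597), against 0.960 for a constant gene. The profile of Sox10 rests on 67 counts, with 0 in 1 tooth and 3 or fewer in 3 teeth, so counting error is large. Only genes that passed the filter were searched, and nothing is read from these lists.

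Markers of other cells that a dissected tooth can hold were summed in each tooth, and the calls in each list stand beside the 11.5% of all genes that changed. Those of skeletal muscle ran from 31.2 to 115.0 CPM in controls and from 20.5 to 159.8 CPM with IGF1, with 0 of 5 tested genes changed by edgeR, DESeq2 or limma-voom and 0 at an unadjusted p under 0.05. Those of neurons ran from 65.6 to 92.2 and from 59.9 to 105.9 CPM, with 1 of 9 changed, Tubb3 (log2 fold change 0.70, adjusted p = 0.0283, edgeR). The neuron sum was higher with IGF1 in 4 of 5 embryos, with a median of 73.2 CPM in controls and 98.8 CPM with IGF1. The sums for melanocytes were lower with IGF1 in all 5 embryos (64.7 to 74.7 against 56.7 to 62.3 CPM), with 0 of 4 tested genes changed by edgeR, 2 at an unadjusted p under 0.05, 0 changed by DESeq2 and limma-voom, and Pmel at 11 and 6 counts. Most of this sum was Kit, which other cells also express, at 46.8 ± 3.67 CPM in controls and 41.0 ± 1.80 CPM with IGF1. Endothelial sums were also lower in all 5 embryos (363 to 411 against 284 to 377 CPM), where 1 of 6 genes, Cdh5, changed (-0.38, adjusted p = 0.0188). Among macrophage markers 1 of 5 changed, Csf1r (-0.44, adjusted p = 0.0234), among epithelial markers 1 of 6, Krt5 (0.43, adjusted p = 0.0126), and among mesenchymal markers 1 of 6, Dlx2 (-0.75, adjusted p = 0.000199), all by edgeR. Without the pairing Tubb3, Cdh5, Csf1r and Krt5 were not called (adjusted p from 0.0797 to 0.303), and DESeq2 did not call Tubb3 (0.0909) or Csf1r (0.129). With an embryo left out the calls of Tubb3 (without embryo 1, 2, 4 or 6), Cdh5 (2 or 4), Csf1r (3, 4 or 6) and Krt5 (6) were lost, at adjusted p up to 0.144, whereas Dlx2 kept its call in all 11 alternatives. The epithelial sums were 1403 to 2111 CPM in controls and 1674 to 2233 CPM with IGF1 and the mesenchymal sums 1454 to 1793 and 1385 to 1622 CPM. The mesenchymal sum was lower with IGF1 in all 5 embryos and the epithelial sum higher in 4. Those of macrophages, at 40.4 to 60.6 and 31.8 to 54.4 CPM, were lower with IGF1 in all 5 embryos. The part of these cells in the values of Scn7a and Ngfr was not tested.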

How the data were processed

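Whole-transcript libraries (Ovation Mouse RNAseq System) were made from each tooth. The values are estimated counts of each gene, as deposited by the authors after Salmon (version 0.99.0, with FastQC 0.11.8, Trimmomatic 0.39, GRCm38 and DESeq2 also named in the submitters' processing notes), not normalized. All values were whole, and the lowest sum over the 10 teeth was 10. The transcript set and any use of strand are not given in the sources used here, so counts of paralogs and overlapping genes are estimates. Of the identifiers, 18287 were in GENCODE and 94 were not.

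Counts were tested with edgeR 4.0.16 (quasi-likelihood, TMM, filterByExpr, Benjamini-Hochberg) with embryo as a replicate block, since the labels take both teeth of a number from 1 embryo. After subtraction of group means, the teeth of embryo 1 correlated at 0.319, of embryo 2 at 0.208, of embryo 3 at -0.0389, of embryo 4 at 0.170 and of embryo 6 at 0.313, and the median correlation of teeth from different embryos was -0.0463. Pairs of teeth within a treatment were not duplicates (chi-square per degree of freedom 4.52 to 18.2). Ratios of summed counts have exact conditional (Clopper-Pearson) 95% intervals. The procedure was tested on simulated data. The named genes were the members, S100b and some genes not reported here, every gene of the lists past the threshold and the 5 genes nearest in profile to Scn7a and to Sox10. Scn9a, Scn1a, Scn2a, Nrg1, Dhh, Gfra3, Cnp, Lgi4, L1cam, Mal, Sox8, Pou3f1, Pmel and Kit were named after their values were seen. The members and lists were chosen with earlier results of these data known. Alternatives were DESeq2 1.42.0, limma-voom (limma 3.58.1), DESeq2's size factors, other filters, no block and leaving out each embryo, in R 4.3.3.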

Additional observations from a re-analysis of the deposited data

Results flagged for a closer look

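Among 44 groups of 5 teeth, 22 genes in each treatment, 2 held a tooth far from the others by Dixon's criterion, where chance gives about 1 in 20, or 2.2 of 44. Sox10 was at 2.96 CPM (21 counts) in the IGF1 tooth of embryo 4, while the other IGF1 teeth were at 0.143 to 0.864 CPM. Erbb2 was at 96.5 CPM in the IGF1 tooth of embryo 2, while the other IGF1 teeth were at 119.8 to 129.0 CPM. The control tooth of embryo 2 was also the lowest of its group for Erbb2, at 109.0 CPM, with the other control teeth at 134.3 to 165.2 CPM.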

How the results depend on the processing

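Scn7a was lower with IGF1 in the 10 alternatives that gave a value (log2 fold change -2.15 to -1.84), of which DESeq2 gave no adjusted p, and the filter of at least 10 counts in every tooth left it out. The fit without the replicate block, which leaves the teeth unpaired, called 887 of all genes in place of 1666, 1 member in place of 2, 0 neural crest genes in place of 4, 1 ErbB and neurotrophin gene in place of 3 and 0 sodium channel genes in place of 1, and 1 wider glia gene as before. DESeq2 called 1 member, 0 wider glia and 0 sodium channel genes. The filter of at least 10 counts in every tooth called 1 member, 2 wider glia and 0 sodium channel genes, limma-voom 2 wider glia genes, and the fit without a filter 0. Leaving out each embryo in turn called 986 to 1602 of all genes, 1 to 2 members, 0 to 1 wider glia genes, 1 to 5 neural crest genes, 1 to 2 ErbB and neurotrophin genes and 0 to 1 sodium channel genes. The 58 genes that differed between embryos became 682 with DESeq2's likelihood ratio test, 207 with the filter of at least 10 counts and 11 (without embryo 1) to 675 (without embryo 3) with an embryo left out, while 0 members passed in any of the 9 alternatives. Over 18 tested genes named here, 190 alternative values kept direction and side of the threshold in 137 cases, lost the call in 52, gained it in 1 and changed sign in 0. Beyond fewer genes or teeth, the cause was not tested. Depth limits Sox10, Foxd3, Fabp7 and Cdh19, whose 14 to 134 counts in all leave wide intervals.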
